A study of Mus musculus with 3 samples.

Results

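The genes described here are 35 regulators of splicing and of messenger RNA fate that neurons are known for, in 11 families: Rbfox, Nova, Celf, Elavl, Ptbp, Srrm, Khdrbs, Mbnl, the Fmr1 family, Pum2 and Cpeb. They were taken by gene symbol from the 32532 genes listed in each file, and all 35 were found. The RNA came from adult, untreated control mice carrying Lypd1-EGFP-L10a in the transgenic line OI82, in which Lypd1 regulatory DNA drives ribosomal protein L10a fused to EGFP. Tagged polysomes of the cortex-amygdala transition zone, where ventral cortex meets the amygdala, were pulled down with anti-EGFP antibodies and their RNA was sequenced. There was 1 group of 3 libraries, called replicates 1, 2 and 3. The design text names 3 mice, and the sources used here do not tie a mouse to each library. No untagged or whole-tissue RNA was analysed here. Every comparison below is therefore between genes or between libraries of 1 group, and a captured level does not tell fewer expressing cells from less RNA per cell.

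Proteins of these families read short sequence elements in RNA. Rbfox, Nova, Celf, Ptbp, Mbnl and Khdrbs proteins bind near alternative exons and raise or lower their inclusion according to where they bind, and Srrm4 and Srrm3 promote the inclusion of very short neuronal exons. Elavl proteins also stabilize messenger RNAs, and Fmr1-family, Pum2 and Cpeb proteins control translation, in neurons also near synapses. Several families pair a broadly expressed member (Ptbp1, Elavl1, Srrm1) with members that neurons use, and the replacement of Ptbp1 by Ptbp2 is a known step of neuronal differentiation.

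Counts assigned to genes totalled 18526251 in replicate 1, 24690301 in replicate 2 and 8668527 in replicate 3. A gene is called detected at 1 CPM (assigned counts scaled to a common library total) or more in every library. Reads in no annotated feature made up 31.4, 25.6 and 45.3% of all entries. The non-coding RNAs Malat1 and Meg3 measured 34476, 14399.7 and 82536 CPM and 22092, 13930.4 and 46742 CPM, both lowest in replicate 2 and highest in replicate 3. All 9 neuronal markers were detected and summed to 12395, 18176 and 9829 CPM. All 8 astrocyte markers were detected and summed to 1384, 621 and 634 CPM, and all 8 oligodendrocyte markers summed to 427, 237 and 237 CPM. Of 8 microglial markers 4 were detected, P2ry12 and Aif1 among them, and the list summed to 46.5, 22.2 and 34.5 CPM. Of the 4 not detected, C1qa had 0, 1 and 2 counts and Cx3cr1 had 367, 12 and 25. Of 8 endothelial and 8 mural or fibroblast markers 6 each were detected, with sums of 52.4, 67.03 and 31.03 CPM and of 170.2, 56.4 and 56.4 CPM. The 6 markers of oligodendrocyte precursors were all detected and summed to 194, 139 and 259 CPM. The part of other cell classes in the levels below was not tested.

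All 35 regulators were detected, against 39.3% of all listed genes. Together they took 1.29, 1.15 and 1.27% of the assigned counts. Each rested on at least 67, 245 and 54 counts in replicates 1, 2 and 3. To compare genes, a level was divided by the length of the gene's annotated exons and is given as CPM per kb. The median of the 35 was 22.2, 15.5 and 15.9 CPM per kb, where the median of all detected genes was 5.80, 5.49 and 6.13. Above that median in every library were 28 of the 35 (80%), against 39.3% of detected genes, and 17 were above the 75th percentile in every library (48.6%), against 18.2%. The families were chosen for known roles in neurons, broadly expressed members included, and with earlier results of these data known. These shares therefore describe the members and test nothing. Srrm3 and Khdrbs2 were below the median of detected genes in every library.

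**Figure D1:**
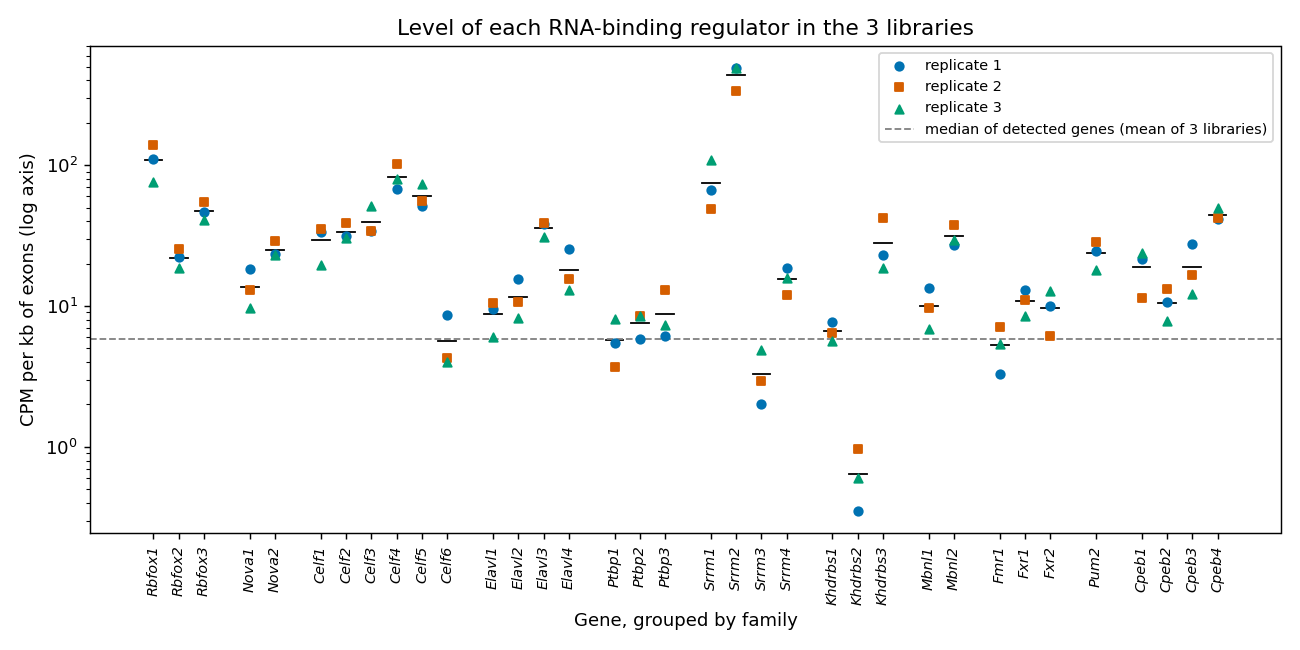
Level of each of the 35 genes in the 3 libraries, in CPM per kb of annotated exons on a log axis, grouped by family. Points are libraries, black lines the mean of 3 and the dashed line the median of detected genes. Srrm2 stands at the top with a mean of 437 CPM per kb and Khdrbs2 at the bottom with 0.64.

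Short coding exons are shown first because 3 of the families carry the same one in several members, and the Ptbp exon is a known target of the Ptbp1 protein itself. In the GENCODE M21 annotation of GRCm38, 12 of the 35 genes had an internal coding exon of 36 bases or fewer, 17 such exons in all. Capitals mark the bases that every sequence of a set shares, 5′ to 3′ on the gene's strand. The first set is the 34-base exon of the Ptbp genes, with 19 bases shared by all. Its skipping shifts the reading frame, and skipping in Ptbp2 and Ptbp1 is the known switch by which Ptbp1 protein lowers both messenger RNAs.
Ptbp1: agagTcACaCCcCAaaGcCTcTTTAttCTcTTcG
Ptbp2: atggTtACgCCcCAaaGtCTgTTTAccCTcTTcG
Ptbp3: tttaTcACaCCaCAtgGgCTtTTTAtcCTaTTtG

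The Ptbp1 exon lies at chr10:79862014-79862047 (plus strand), the Ptbp2 exon at chr3:119724612-119724645 (minus strand) and the Ptbp3 exon at chr4:59485339-59485372 (minus strand). The Ptbp1 and Ptbp2 exons were identical at 26 of 34 bases (76.5%), and the Ptbp3 exon matched them at 22 and 21. Another 34-base exon of Ptbp3 matched each of them at 5 bases. It is not printed, nor is a 31-base exon of Ptbp1 and Ptbp2, identical at 19 bases (61.3%). All coding transcripts annotated across the exon held it, 3 of 3 for Ptbp1, 3 of 3 for Ptbp2 and 7 of 7 for Ptbp3. Of the annotated transcripts marked for nonsense-mediated decay, the pathway that destroys messages with an early stop, 0 of 2 held it in Ptbp1 and 0 of 2 in Ptbp2, and 1 of 1 in Ptbp3. The second set is the 24-base exon of the Cpeb genes, which keeps the reading frame and in Cpeb4 is a known neuronal microexon, with 18 bases shared by all.
Cpeb2: CaAGGAgtTATGGGCGaAGacGAG
Cpeb3: CcAGGAgcTATGGGCGgAGacGAG
Cpeb4: CaAGGActTATGGGCGaAGgaGAG

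These exons lie at chr5:43268869-43268892 (plus strand), chr19:37105791-37105814 (minus strand) and chr11:31918801-31918824 (plus strand). Cpeb1 had no exon this short. Of the coding transcripts annotated across it, 2 of 4 held the exon in Cpeb2, 5 of 8 in Cpeb3 and 2 of 3 in Cpeb4. The third set is the 36-base exon of Mbnl1 and Mbnl2, identical at 31 bases (86.1%) and also a multiple of 3.
Mbnl1: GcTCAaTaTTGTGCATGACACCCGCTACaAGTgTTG
Mbnl2: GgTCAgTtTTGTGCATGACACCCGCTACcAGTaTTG

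The Mbnl1 exon lies at chr3:60621423-60621458 (plus strand) and the Mbnl2 exon at chr14:120403336-120403371 (plus strand), and 7 of 9 and 2 of 6 coding transcripts held them. Both hold TGCATG, the element Rbfox proteins bind, within their shared bases. Searched on both strands, TGCATG was in 6 of the 468 internal coding exons of 36 bases in the annotation (1.28%), these 2 among them. A match is a stretch of letters and not evidence of binding. Transcripts marked for nonsense-mediated decay were annotated for 14 of the 35 genes (40%), against 29.2% of the 11379 detected protein-coding genes. The median number of annotated transcripts was 10 for the 35 and 5 for those genes. Counts per gene do not show which exons were included, so the levels below hold all transcripts of a gene together.

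Members of 10 families were compared with each other within each library, 47 pairs in all. A pair is called separated here when the difference in log2(CPM per kb + 0.1) had the same sign in all 3 libraries and a mean above its SD. This held for 37 pairs and not for 10. With 3 libraries, the smallest p of the exact two-sided permutation test, which flips the signs of the libraries, is 0.25. All separated pairs had that value, with an adjusted p of 0.309 over the 47 pairs (Benjamini-Hochberg), so no pair passed a threshold of 0.05. With the longest annotated transcript as length in place of the union of all exons, 35 of the 37 were separated in the same direction, and 30 were so with both lengths and without length correction. In 8 of the 10 families 1 member led in every library, and all 8 led under both lengths. The Ptbp and Fmr1 families had no such member with the union of exons as length.

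**Figure D2:**
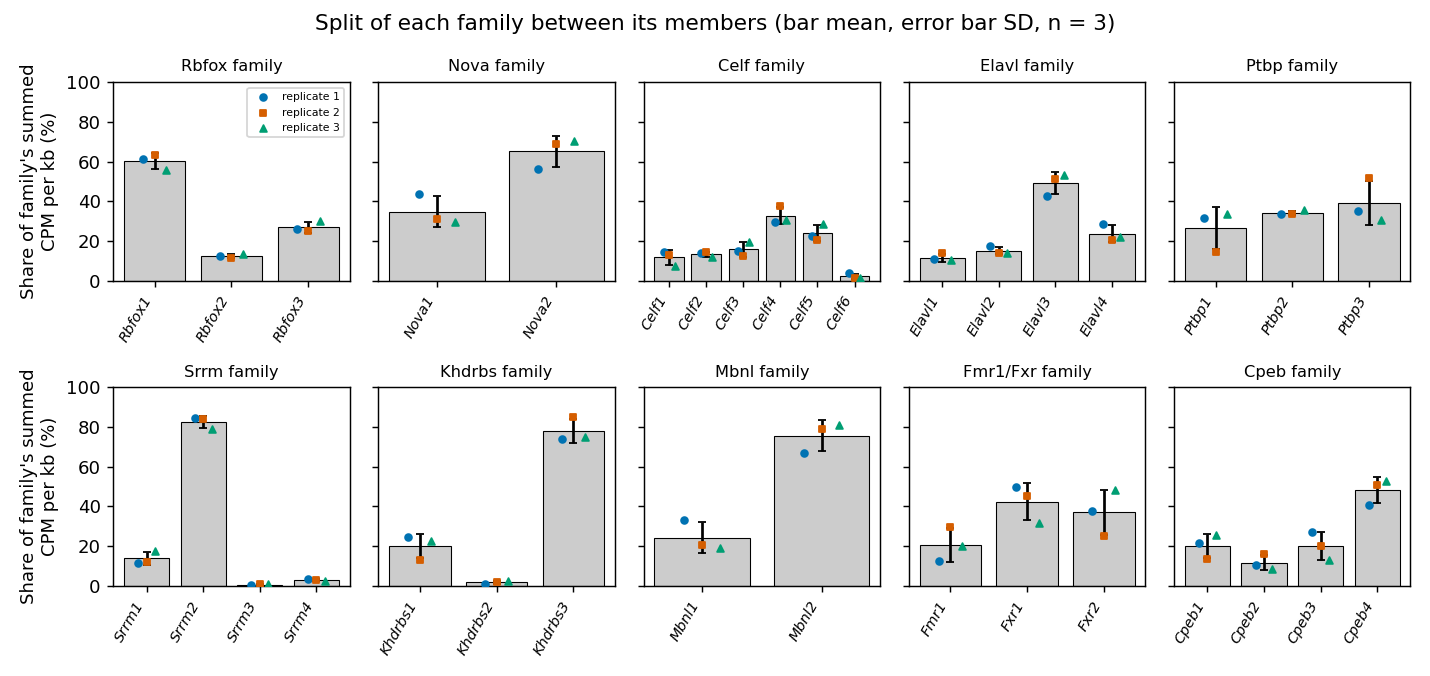
Share of each member in its family's summed level (CPM per kb), as a percentage. Bars are means of 3 libraries, error bars the SD and points the libraries. Rbfox1, Nova2, Celf4, Elavl3, Srrm2, Khdrbs3, Mbnl2 and Cpeb4 have the largest share of their family in every library.

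Rbfox1 led the Rbfox family, whose proteins share an RNA-binding domain that recognizes GCATG. Rbfox1 measured 110.0, 139.8 and 75.7 CPM per kb in replicates 1, 2 and 3. Rbfox3, known as the neuronal nuclear antigen NeuN, measured 46.5, 54.97 and 40.9 CPM per kb. Rbfox2, which is also expressed outside neurons, measured 22.2, 25.4 and 18.6 CPM per kb. The order Rbfox1, Rbfox3, Rbfox2 was the same in every library, with no overlap between the 3 genes, and each of the genes was highest in replicate 2 and lowest in replicate 3. Rbfox1 exceeded Rbfox3 2.23-fold (log2 difference 1.16 ± 0.24, SD, n = 3) and Rbfox2 4.80-fold (2.26 ± 0.22). Rbfox3 exceeded Rbfox2 2.15-fold, and the difference varied little between libraries (Rbfox2 minus Rbfox3 -1.10 ± 0.035). With the longest transcript as length Rbfox2 minus Rbfox3 was -1.75, and without length correction Rbfox1 minus Rbfox2 was 1.38. Rbfox1 made up 60.4 ± 3.88% of the family's summed level, Rbfox3 27.1 ± 2.78% and Rbfox2 12.6 ± 1.11%. Rbfox1 spans chr16:5885355-7411526 on the plus strand and Rbfox3 chr11:118489762-118911597 on the minus strand of GRCm38.

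Of the Nova genes, first known as the antigens of a paraneoplastic movement disorder, Nova2 exceeded Nova1. Nova2 measured 23.4, 29.002 and 22.96 CPM per kb and Nova1 18.2, 12.98 and 9.75 CPM per kb. Nova2 was above Nova1 in every library, and the levels of the genes did not overlap. The difference Nova1 minus Nova2 was -0.91 ± 0.48 on the log2 scale, and it was smallest in replicate 1, at -0.36 against -1.15 and -1.23. Nova2 took 65.2 ± 7.77% of the summed level.

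Celf4 led the Celf family, proteins that bind GU-rich RNA and act on splicing, stability and translation. Celf4, a brain-enriched member, measured 67.4, 101 and 79.7 CPM per kb. Celf5 measured 51.4, 55.96 and 73.9 CPM per kb and Celf3, another brain-enriched member, 33.9, 33.9 and 51.1 CPM per kb. Celf4 was above Celf5 in every library (log2 difference 0.45 ± 0.38), and without replicate 1 that difference, 0.48 ± 0.53, was smaller than its spread. Celf3 and Celf5 were both highest in replicate 3, and Celf5 exceeded Celf3 1.53-fold with a narrow spread (Celf3 minus Celf5 -0.62 ± 0.10). Celf1, the broadly expressed member, measured 33.4, 35.01 and 19.4 CPM per kb, and Celf2, which is active in brain, heart and blood cells, 31.2, 38.7 and 30.5 CPM per kb. Celf1 and Celf2 overlapped, and neither was separated from the other (-0.23 ± 0.38) or from Celf3. Celf6 was the lowest in every library, at 8.69, 4.24 and 4.01 CPM per kb, and Celf4 exceeded it 15.1-fold (3.92 ± 0.86), a difference of 4.80 with the longest transcript as length and of 5.18 without length correction.

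The place of Celf2 depended on the length it was divided by. Its annotated exons cover 25884 bases, while its longest transcript has 8856. Before any length correction Celf2 was the most abundant Celf gene in every library, at 807, 1002 and 789 CPM, against 579, 868 and 684 CPM for Celf4. With the longest transcript as length it took 20.8 ± 2.01% of the family's level in place of 13.3 ± 1.36%. Celf2 was then separated from Celf1 (Celf1 minus Celf2 -1.67 ± 0.38), and Celf2 minus Celf5 changed from -0.84 ± 0.39 to 0.10 ± 0.39. Celf2 minus Celf3 changed from -0.23 ± 0.47 to 0.62 ± 0.48, which was separated. Celf4 remained above Celf2 with the longest transcript (Celf2 minus Celf4 -0.85 ± 0.16) and lay below it without length correction (0.30 ± 0.16).

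Elavl3 led the Elavl family, which encodes the Hu proteins that bind AU-rich elements. Elavl3 (HuC) measured 38.1, 38.9 and 30.97 CPM per kb. Elavl4 (HuD) measured 25.6, 15.5 and 12.98 CPM per kb and Elavl2 (HuB) 15.6, 10.7 and 8.20 CPM per kb. Elavl1 (HuR), the broadly expressed member, measured 9.58, 10.6 and 6.03 CPM per kb. Elavl3 was the highest and Elavl1 the lowest of the 4 in every library under both lengths. Elavl1 and Elavl2 nearly met in replicate 2. Without length correction Elavl4 was the lowest in replicate 2. Neither Elavl1 minus Elavl2 (-0.071 ± 0.35) nor Elavl1 minus Elavl4 (-0.079 ± 0.44) was then separated. Elavl3 exceeded Elavl4 2.07-fold (1.05 ± 0.41) and Elavl1 4.18-fold (Elavl1 minus Elavl3 -2.06 ± 0.25). The difference of Elavl1 and Elavl2, -0.39 ± 0.34, was no longer above its spread without replicate 1 (-0.23 ± 0.30) or without replicate 3 (-0.36 ± 0.48). Elavl2 was below Elavl4 by -0.63 ± 0.093 with the union of exons and by -0.022 ± 0.093 with the longest transcript, so their order rests on the length. Elavl2 and Elavl4 had the same library order, highest in replicate 1 and lowest in replicate 3.

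The Ptbp genes were low among the 35, at ranks 31, 29 and 27 by mean for Ptbp1, Ptbp2 and Ptbp3. Ptbp2 and Ptbp3 were still above the median of detected genes in every library. With the union of exons as length the 3 genes were not separated from each other. Ptbp1, the broadly expressed repressor of neuronal exons, measured 5.50, 3.67 and 8.08 CPM per kb. Ptbp2, its neuronal paralogue, measured 5.84, 8.43 and 8.51 CPM per kb, and Ptbp3, better known from blood cells, 6.09, 12.96 and 7.36 CPM per kb. In replicate 2 the order was Ptbp3, Ptbp2, Ptbp1, while in replicates 1 and 3 the 3 genes lay close together. Ptbp1 minus Ptbp2 was -0.45 ± 0.64 on the log2 scale and Ptbp1 minus Ptbp3 -0.60 ± 1.04, both within their spread. Without replicate 2 Ptbp1 minus Ptbp2 was -0.079 ± 0.0069, separated in sign but near 0. With the longest transcript as length Ptbp2 was the highest in every library. Ptbp1 minus Ptbp2 was then -1.04 ± 0.64, and Ptbp2 minus Ptbp3 changed from -0.16 ± 0.42 to 0.89 ± 0.42, both separated. Without length correction Ptbp1 was the lowest in every library. It was then separated from Ptbp2 (Ptbp1 minus Ptbp2 -1.40 ± 0.64) and from Ptbp3 (-1.27 ± 1.05). The 34-base exons shown above lie in these 3 genes, and 6.22% of the annotated exon bases of Ptbp1 overlap E130317F20Rik, the largest overlap with another listed gene among the 35.

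Among the Srrm genes, which share serine- and arginine-rich repeats but not 1 function, Srrm2 was far above the rest. Srrm2, a scaffold protein of nuclear speckles, measured 486, 335 and 489 CPM per kb, and in uncorrected units 6236, 4308 and 6278 CPM. Srrm1, a splicing coactivator, measured 66.7, 48.6 and 109 CPM per kb. Srrm4, the neuronal activator of microexons, measured 18.6, 11.9 and 15.9 CPM per kb, and its relative Srrm3 2.03, 2.92 and 4.90 CPM per kb. The order Srrm2, Srrm1, Srrm4, Srrm3 was the same in every library without overlap. Srrm2 exceeded Srrm1 6.08-fold (Srrm1 minus Srrm2 -2.60 ± 0.38) and Srrm4 28.1-fold (4.81 ± 0.12), and Srrm1 minus Srrm2 was -3.42 without length correction. Srrm4 exceeded Srrm3 4.81-fold (Srrm3 minus Srrm4 -2.27 ± 0.76), by less in replicate 3 than in replicate 1. Srrm1 and Srrm3 were highest in replicate 3, Srrm1 lowest in replicate 2 and Srrm3 lowest in replicate 1.

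Khdrbs3 led the family of signal-transducing RNA-binding proteins that regulate neurexin splicing. Khdrbs3 (SLM2) measured 23.2, 42.5 and 18.6 CPM per kb. Khdrbs1 (Sam68), the broadly expressed member, measured 7.71, 6.44 and 5.63 CPM per kb and Khdrbs2 (SLM1) 0.351, 0.964 and 0.605 CPM per kb. The levels of the 3 genes did not overlap, and both Khdrbs2 and Khdrbs3 were highest in replicate 2. Khdrbs3 exceeded Khdrbs1 3.99-fold (Khdrbs1 minus Khdrbs3 -2.00 ± 0.62) and Khdrbs2 37.97-fold (Khdrbs2 minus Khdrbs3 -5.25 ± 0.48). The low level of Khdrbs2 makes its difference depend on the pseudocount, and it was -4.08 with a pseudocount of 1. Without length correction Khdrbs1 minus Khdrbs3 was -1.20 and Khdrbs2 minus Khdrbs3 -3.97. Khdrbs2 was the lowest of the 35 genes and the one not detected at 5 CPM in every library, with 3.62, 9.92 and 6.23 CPM.

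Mbnl2 exceeded Mbnl1, the muscleblind proteins whose sequestration by expanded repeats underlies myotonic dystrophy. Mbnl2, the member known for splicing in brain, measured 26.9, 37.3 and 29.4 CPM per kb, and Mbnl1 13.4, 9.76 and 6.87 CPM per kb. The genes did not overlap. Mbnl2 exceeded Mbnl1 3.18-fold (Mbnl1 minus Mbnl2 -1.67 ± 0.58), and with the longest transcript as length the difference was -1.06 ± 0.59. The annotated exons of Mbnl1 cover 18717 bases against 5655 in its longest transcript.

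In the Fmr1 family no member led in every library with the union of exons as length, while Fxr1 did with the longest transcript and without length correction. Fmr1, whose silencing causes fragile X syndrome, measured 3.31, 7.10 and 5.35 CPM per kb. Its autosomal relatives measured 13.1, 10.9 and 8.49 CPM per kb for Fxr1 and 9.95, 6.08 and 12.8 CPM per kb for Fxr2. Fmr1 was the lowest in replicates 1 and 3 and Fxr2 the lowest in replicate 2. Fmr1 was below Fxr1 in every library (-1.07 ± 0.76), but the pair was not separated without length correction (-0.64 ± 0.77). Fmr1 minus Fxr2 was -0.86 ± 0.95 and not separated with 3 libraries, and it was -1.40 ± 0.22 without replicate 2. Fxr1 and Fxr2 were not separated (0.21 ± 0.73), but without replicate 3 (0.62 ± 0.32) or with the longest transcript as length (0.98 ± 0.73) Fxr1 was the higher. The family's summed level varied little, at 25.7 ± 1.38 CPM per kb, while its members did not keep an order.

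Cpeb4 led the Cpeb genes, which bind cytoplasmic polyadenylation elements and set the poly(A) tail and translation of their targets. Cpeb4 measured 41.3, 42.2 and 49.3 CPM per kb and had the narrowest range of the 35 genes, 1.19-fold from its lowest to its highest library. Cpeb3 measured 27.7, 16.6 and 12.2 CPM per kb, Cpeb1 21.7, 11.3 and 23.7 CPM per kb and Cpeb2 10.8, 13.2 and 7.78 CPM per kb. Cpeb4 lay above every library of the other 3 genes, which overlapped. Cpeb4 exceeded Cpeb3 2.47-fold (Cpeb3 minus Cpeb4 -1.31 ± 0.72), Cpeb1 2.44-fold (-1.29 ± 0.52) and Cpeb2 4.24-fold (-2.08 ± 0.51), and Cpeb1 minus Cpeb4 was -1.90 without length correction. Cpeb1 was not separated from Cpeb2 (0.80 ± 0.93) or Cpeb3 (0.018 ± 0.82). Without replicate 2 Cpeb1 was above Cpeb2 (1.30 ± 0.42), and without replicate 3 it was below Cpeb3 (-0.45 ± 0.14). Cpeb1 was lowest in replicate 2, whereas Cpeb3 was highest in replicate 1 and lowest in replicate 3. Pum2, a translational repressor that binds Pumilio elements, measured 24.8, 28.5 and 17.9 CPM per kb.

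**Figure D3:**
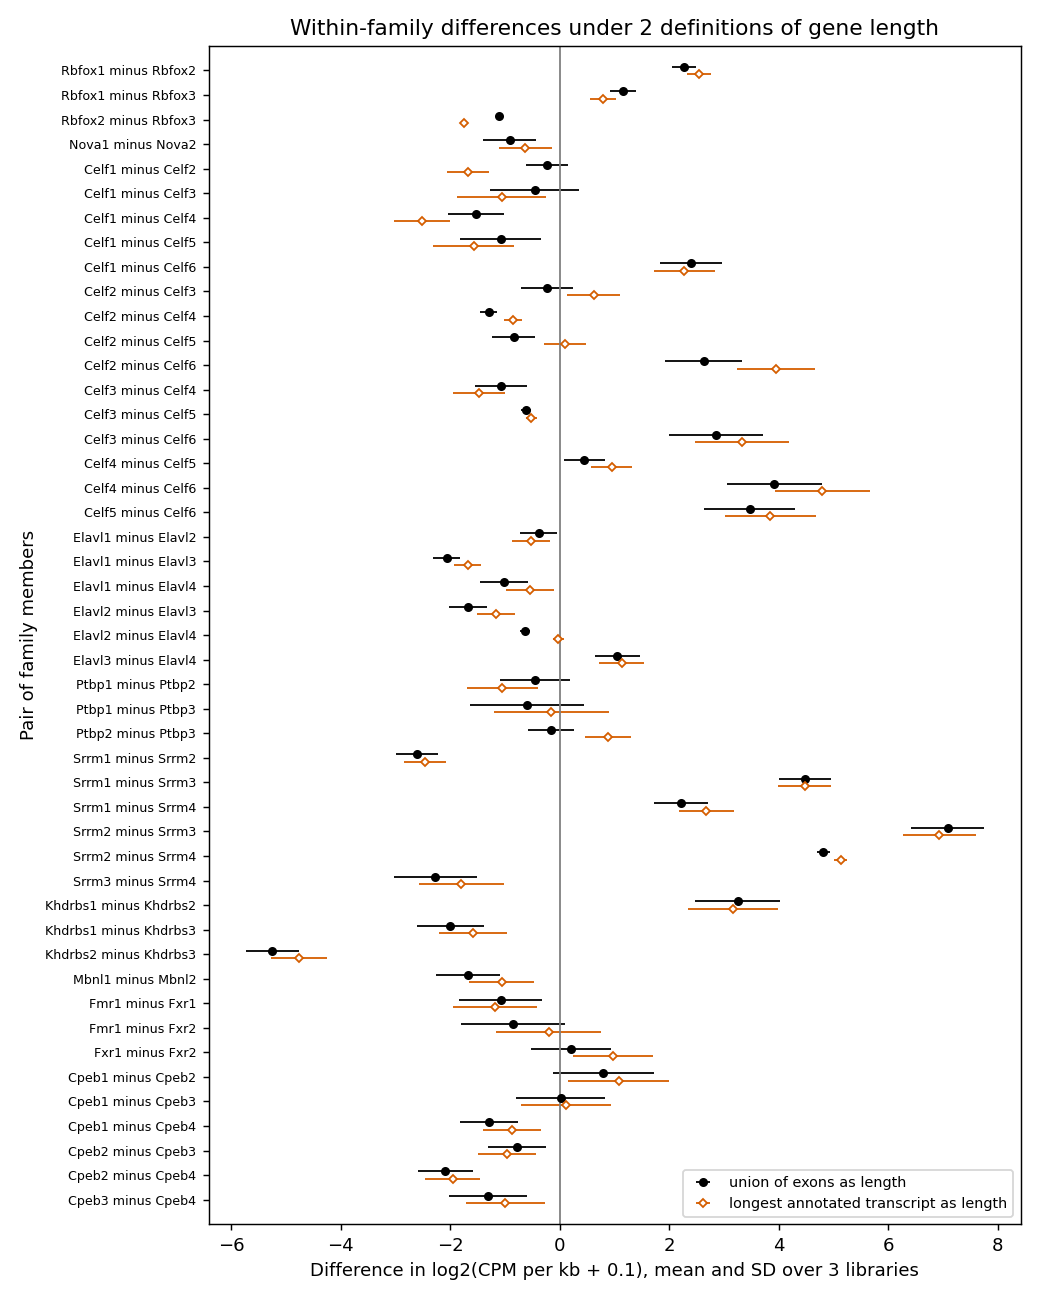
Difference in log2(CPM per kb + 0.1) between the members of each pair, mean and SD over 3 libraries. Black circles use the union of annotated exons as length and open diamonds the longest annotated transcript. Celf1 minus Celf2 shifts most, and Celf2 minus Celf3, Celf2 minus Celf5 and Ptbp2 minus Ptbp3 change sign.

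None of the 35 genes was called as varying between the libraries more than genes of like level. The edgeR goodness-of-fit test called 0 of the 35 at an adjusted p under 0.05 (Benjamini-Hochberg over 15336 genes), against 32 of 15336 genes (0.209%). At an unadjusted p under 0.05 it also gave 0, and DESeq2's dispersion outliers included 0. The lowest p among the 35 was that of Khdrbs3, 0.116 (edgeR, adjusted p = 0.818). With a background this low, 0 of 35 is not a result about these genes. The test also has little power here, since on simulated data it missed most of the smallest changes planted, which were larger than the range of any of the 35. The ratio of the highest to the lowest library ranged from 1.19 for Cpeb4 to 2.74 for Khdrbs2. Its median was 1.58 for the 28 members that averaged at least 50 CPM, against 1.68 among the 4035 genes at that level.

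Within that spread the libraries were not ordered alike for all families. Replicate 3 was the lowest library for 19 of the 35 genes (54.3%), against 27.5% of the 15336 genes tested. Replicate 2 was the highest for 16 (45.7%), against 29.2%. With TMM scaling these were 19 (54.3%) against 32.2% and 17 (48.6%) against 33.6%. With DESeq2 size factors they were 20 (57.1%) against 33.8% and 17 (48.6%) against 33.9%. All members of the Rbfox, Nova and Elavl families were lowest in replicate 3, under the library totals, TMM and DESeq2 scaling alike. Replicate 3 was the highest for 10 of the 35 (28.6%), a smaller share than the 39.2% of the genes tested. These 10 were Srrm1, Srrm2, Srrm3, Celf3, Celf5, Ptbp1, Ptbp2, Fxr2, Cpeb1 and Cpeb4. Of these 8 were highest there with TMM scaling, which leaves out Srrm2 and Ptbp2, and 7 with DESeq2 size factors, which also leave out Cpeb1. The shares were then 22.9% and 20%, against 34.3% and 32.8% of the genes tested. DESeq2 scaling lowers every gene of replicate 3 by a log2 of 0.11 against the library totals. Replicate 3 was also the library with the least depth, the most reads in no feature, the most Malat1 and Meg3 and the lowest sum of neuronal markers, as given above. The part of these in the order of the libraries was not tested.

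**Figure D4:**
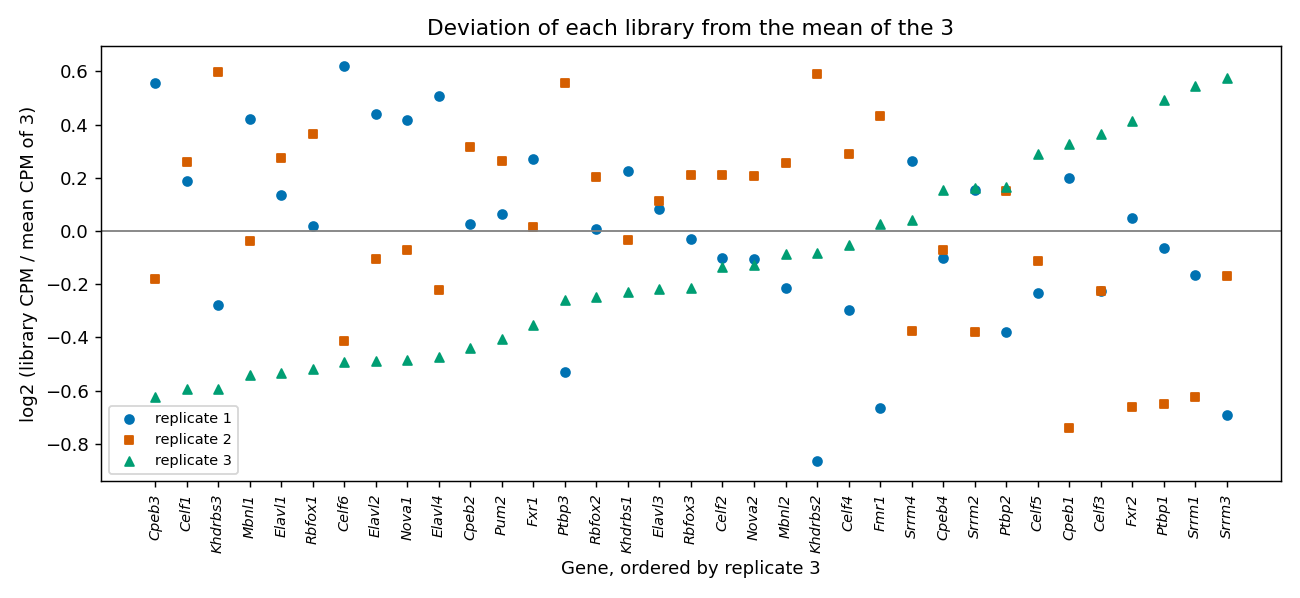
Log2 ratio of each library's CPM to the gene's mean of 3, with the genes ordered by replicate 3. Points are libraries. The genes at the right, among them Srrm1 and Srrm3, are highest in replicate 3, and those at the left, among them Cpeb3, Celf1 and Khdrbs3, are lowest there.

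Other RNA-binding genes and their partners, in 4 lists with 94 genes, were broadly detected as well. Of these 88 were tested for variation between libraries and 0 were called, by the same edgeR test whose background is given above. All 13 SR and Tra2 genes, the core of exon recognition, were detected. Their median was 17.5 ± 2.95 CPM per kb. Their summed level was 1358, 1205 and 1960.1 CPM, highest in replicate 3 under all 3 scalings. Srsf5 led with 79.9, 70.6 and 117 CPM per kb and Srsf9 followed with 49.7, 44.7 and 67.4 CPM per kb. All 26 hnRNP genes were detected, with a median of 16.8 ± 1.59 CPM per kb and sums of 2479, 2591 and 2643 CPM. Hnrnpa0 measured 62.4, 46.1 and 28.4 CPM per kb and Hnrnpa1 36.5, 34.8 and 48.99 CPM per kb, the first highest in replicate 1 and the second in replicate 3.

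Of 27 other splicing regulators 22 were detected, with a median of 13.7 ± 2.10 CPM per kb and sums of 3866, 3261 and 4920.4 CPM. The RNA helicases Ddx17 and Ddx5 led with 61.7, 46.5 and 88.2 CPM per kb and 47.9, 63.996 and 62.9 CPM per kb. Esrp1 and Esrp2, the splicing factors of epithelial cells, had 0 counts in every library, which allows up to 0.162, 0.122 and 0.346 CPM each (3 counts, counting error only). Rbm4 and Raver1, which are broadly expressed genes, also had 0 counts in every library, so a 0 in these files need not mean that a gene is silent. Mbnl3, the third muscleblind gene, was not detected. Of 28 regulators of RNA transport and translation 26 were detected, with a median of 12.4 ± 1.29 CPM per kb and sums of 5076, 4969.9 and 3707 CPM, lowest in replicate 3 under all 3 scalings. Cyfip2, a partner of the Fmr1 protein, led with 182, 198 and 111 CPM per kb, followed by the DNA- and RNA-binding protein gene Purb with 77.9, 71.3 and 40.8 CPM per kb. The differences of these sums between libraries were not tested.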

How the data were processed

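Whole-number counts of reads per gene symbol were deposited, not normalized, in 1 file for each of the 3 libraries. They come from STAR 2.0.0e, mm10 and HTSeq, per the submitters' processing notes. The counting annotation, strand setting and library kit are not given in the sources used here, so antisense and overlapping genes cannot be told apart. Reads aligned to several places (16.5% to 32.7% of entries) and ambiguous reads (1.26% to 1.98%) are not in the gene counts.

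CPM was computed over 32532 gene rows without the 5 HTSeq summary classes. CPM per kb divides by the union of annotated exons in GENCODE M21 (GRCm38, the assembly mm10 names), which matched all 35 genes and 91.9% of the 12773 detected genes. Pairs within families were compared on log2(CPM per kb + 0.1), which understates differences of very low genes. Signs were flipped over libraries in an exact two-sided permutation test, with Benjamini-Hochberg adjustment over 47 pairs. For variation between libraries, edgeR 4.0.16 (R 4.3.3) fitted an intercept with TMM scaling and trended dispersion to the 15336 genes averaging at least 1 CPM. Residual deviance was tested against chi-square, with Benjamini-Hochberg adjustment at 0.05. Both steps were checked on simulated data. The pair step returned the planted differences, which were large against the simulated noise, so the rule for a separated pair was not tested. The variation test missed most of the smallest planted changes and made more false calls than its threshold allows. Alternatives were DESeq2 1.42.0, other scalings, filters, lengths and pseudocounts, and leaving out each library. Other steps used Python 3.11.15, pandas 2.3.3, numpy 2.4.6 and matplotlib 3.10.9.

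The members, 4 lists of other RNA-binding genes and their partners, and 7 marker lists were chosen with earlier results of these data known. The lists held 149 genes, all matched. The rule named all 35 members and, of each of the 4 lists, the 2 genes with the highest mean CPM per kb. Malat1, Meg3, C1qa, Cx3cr1, P2ry12, Aif1, Mbnl3, Esrp1, Esrp2, Rbm4 and Raver1 were named after their values were seen. The p-value of the permutation test is 0.25 for any pair with 1 sign in all 3 libraries, whatever its spread. The edgeR p-value compares a gene's spread between these libraries with that of genes of like level.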

Additional observations from a re-analysis of the deposited data

How the results depend on the processing

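Detection of all 35 members at 1 CPM in every library already implies their detection at 0.5 CPM and in each pair of libraries. At 5 CPM 34 were detected. The count of separated pairs, 37 of 47, was 37, the same pairs, under TMM or DESeq2 scaling and with pseudocounts of 0 and 1. Scaling could hardly change a pair, because a library's factor acts on both genes and cancels but for the pseudocount. Without length correction the count was also 37, but 5 pairs were lost, 5 gained and 2 turned. It was 42 with the longest transcript as length, with 2 lost and 7 gained, and 36 to 40 with 1 replicate left out, when the smallest p is 0.5. Of the 37 pairs, directions turned for 2. Celf2 minus Celf4 was 0.30 without length correction but stayed at -0.85 with the longest transcript. Celf2 minus Celf5 was 0.10 with the longest transcript and 1.11 without length correction. The annotated exons of Celf2 cover 25884 bases and its longest transcript 8856. Of the 10 pairs not separated, signs turned for 2 with the longest transcript, 6 without length correction, 2 without replicate 2 and 3 without replicate 3. Of the 34 shares within families, 14 moved by more than their SD with the longest transcript and 23 without length correction. Genes called as varying, 32 in the whole table, were 780 with a common dispersion, 21 as DESeq2 dispersion outliers and 5 to 22 with 1 replicate left out, and the count among the 35 was 0 under each of these settings. The cause of these changes in the count was not tested. The number of members highest in replicate 3 was 10, and 8 and 7 under TMM and DESeq2 scaling, in each case a smaller share than over all genes tested. No paired comparison of groups was possible because the series has 1 group, while genes of a family were compared within each library. With 3 libraries and at least 54 counts a gene, the number of libraries and the annotated length limit the comparisons.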
